A study of Caenorhabditis elegans with 24 samples.

Results

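Aminoacyl tRNA synthetases were examined as a gene family, taken as every row of the deposited tables whose gene name is 1 lower-case letter followed by ars-1 or ars-2. The rule found 31 genes among the 46926 of each table, and they cover all 20 amino acids. All 31 had a value at both temperatures and passed the minimum of 10 applied to pooled means. RefSeq lists 33 symbols of this form for the worm. Of the other two, cars-2 is annotated as a pseudogene and was not analysed here, and mars-2 appears in the tables under its sequence name Y105E8A.20, which the rule does not take. Its mean normalized count was 594 at 26 °C and 752 at 20 °C.

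These enzymes attach each amino acid to its tRNA and so supply the ribosome with charged tRNA. They fall into 2 structural classes with unrelated catalytic folds. Animal mitochondria carry their own ribosomes and tRNAs, and the synthetases that serve them are encoded in the nucleus, either by a separate gene or by the gene that also serves the cytoplasm. In mammals, several of the cytoplasmic enzymes are held together in a multi-synthetase complex.

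Whole young adult Caenorhabditis elegans worms had been synchronized and grown at 26 °C or 20 °C, and RNA depleted of ribosomal RNA was sequenced from 24 libraries, 3 in each of 8 groups. The genotypes at each temperature were 3xFG, WAGO-4(Y611E), WAGO-4 KO and WT. WT carries 3xFLAG::GFP::WAGO-4, a tagged germline Argonaute, and so do 3xFG, whose germ granule helicases GLH-1, GLH-2 and GLH-4 have altered phenylalanine-glycine repeats, and WAGO-4(Y611E), whose Argonaute carries a substitution expected to impair small RNA binding. The label of WAGO-4 KO, a stop codon allele, names no tag.

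The deposited tables hold the authors' own comparisons, which were not used, and 1 further value per gene, the mean normalized count over all libraries of a fit. That mean pools the 4 genotypes, so mutants could not be set against WT here, the knockout could not be checked, and no value has a replicate error. The comparison left is that of the 12 libraries at 26 °C with the 12 libraries at 20 °C, which asks how the level of each gene differs between the growth temperatures. It rests on 1 pooled value for each temperature and no test was possible. Over all genes, the pooled means added up to 28460281 at 26 °C and 30474128 at 20 °C. The fits of the temperatures were normalized separately, so each value was expressed per 1000000 of its own sum before the temperatures were set side by side. In whole worms, fewer cells of a type and less RNA per cell cannot be told apart.

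The genes were divided by compartment from general knowledge of the worm genes, without use of their levels. The division gave 13 cytoplasmic genes, 10 mitochondrial genes and 5 genes that are the single coding gene of their name and were taken to serve both compartments (cars-1, gars-1, hars-1, kars-1 and tars-1). The remaining 3, vars-1, yars-1 and yars-2, were not assigned. Being the only coding gene of a name did not decide the group alone. By the RefSeq symbols, qars-1, wars-1 and vars-1 are also the only coding gene of their name. Of these, qars-1 and wars-1 were placed as cytoplasmic.

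The level of a gene was its mean normalized count per 1000000 and per kilobase of its longest transcript, which allows comparison between genes. The genes assigned as cytoplasmic and as mitochondrial did not overlap on this scale, with the unassigned genes left out. If yars-1 were counted as cytoplasmic, the sets would overlap at 26 °C, where it had 40.4 and the mitochondrial gene fars-2 had 42.4. Counted as cytoplasmic, vars-1 (17.4 at 26 °C and 16.0 at 20 °C) or yars-2 (25.0 and 31.3) would make the sets overlap at both temperatures. The separation therefore depends on how the unassigned genes are placed. The cytoplasmic genes lay between 59.5 and 152 at 26 °C and between 71.3 and 143 at 20 °C. The mitochondrial genes lay between 8.25 and 42.4 at 26 °C and between 7.86 and 42.6 at 20 °C. The medians were 87.0 for the cytoplasmic genes and 14.7 for the mitochondrial genes at 26 °C, and 103 and 17.0 at 20 °C. All genes that passed the minimum had a median level of 7.01 at 26 °C and 5.47 at 20 °C. Of the summed mean normalized counts of the family, cytoplasmic genes took 62.7% at 26 °C and 61.6% at 20 °C, the genes of both compartments 26.2% and 28.2%, and mitochondrial genes 7.28% and 6.71%.

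**Figure D1:**
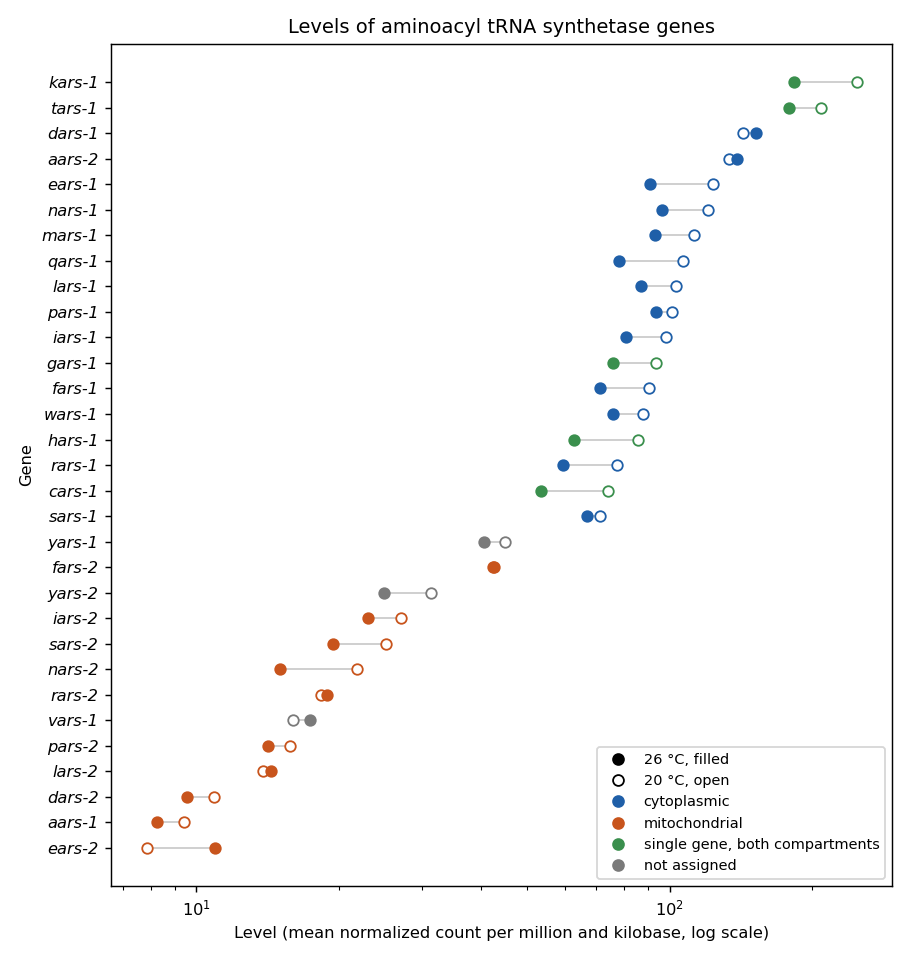
Level of each synthetase gene (mean normalized count per 1000000 and kilobase, log axis) in order of the level at 20 °C. Filled points are the pooled mean at 26 °C and open points that at 20 °C, and colours give the compartment. Leaving aside the unassigned genes, every cytoplasmic gene lies above every mitochondrial gene at both temperatures.

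The highest levels belonged to enzymes encoded by a single gene. kars-1, the lysyl-tRNA synthetase gene (WBGene00002238, chromosome II, 7070183 to 7072415 in WBcel235), had a level of 183 at 26 °C and 249 at 20 °C. tars-1 (threonine; WBGene00006617, chromosome II, 11691325 to 11695657) followed with 179 at 26 °C and 208 at 20 °C. The next genes were cytoplasmic. dars-1 (aspartate; chromosome III, 9489176 to 9491215) had a level of 152 at 26 °C and 143 at 20 °C, and aars-2 (alanine; chromosome I, 3983183 to 3986581) had 139 and 133. These 4 genes held the first 4 places at both temperatures. The fifth place was taken by nars-1 (asparagine) at 26 °C, with a level of 96.2, and by ears-1 (glutamate) at 20 °C, with 123. No gene moved by more than 4 places between the temperatures. Without a replicate error, neighbours in this order cannot be separated.

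The same 5 mitochondrial genes held the lowest places at both temperatures. aars-1, the mitochondrial alanyl-tRNA synthetase gene (WBGene00000196, chromosome II, 11460205 to 11464497), had a level of 8.25 at 26 °C and 9.39 at 20 °C. dars-2 (mitochondrial, aspartate) had 9.53 at 26 °C and 10.9 at 20 °C. ears-2 (mitochondrial, glutamate; WBGene00001338, chromosome IV, 388686 to 390468) had 10.9 at 26 °C and was the lowest of the family at 20 °C with 7.86. pars-2 (proline) and lars-2 (leucine), both mitochondrial, were close together, with 14.2 and 14.4 at 26 °C and 15.7 and 13.8 at 20 °C. The highest mitochondrial gene was fars-2 (phenylalanine), with a level of 42.4 at 26 °C and 42.6 at 20 °C. Among the genes without a compartment, vars-1 (valine) had 17.4 and 16.0, within the mitochondrial range. yars-1 and yars-2, both for tyrosine, had levels of 40.4 and 25.0 at 26 °C and 44.9 and 31.3 at 20 °C, a ratio of 1.62 at 26 °C and 1.44 at 20 °C.

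For 10 amino acids a cytoplasmic and a mitochondrial member could be paired. Methionine was not paired, because mars-2 was found under its sequence name Y105E8A.20 and is no member by the rule. Its level was 12.2 at 26 °C and 14.5 at 20 °C, beside 93.0 and 113 for mars-1. The cytoplasmic gene had the higher level in 10 of 10 pairs at both temperatures, with a median ratio of 6.23 at 26 °C and 5.98 at 20 °C. The pairs differed widely among themselves. For alanine, aars-2 stood 16.8-fold above aars-1 at 26 °C and 14.2-fold at 20 °C, and for aspartate dars-1 stood 16.0-fold above dars-2 at 26 °C and 13.1-fold at 20 °C. Among these 10 pairs, which leave out tyrosine, valine and methionine, the smallest ratio was that of phenylalanine. There fars-1, which encodes the alpha subunit of the cytoplasmic enzyme, stood 1.68-fold above fars-2 at 26 °C and 2.13-fold at 20 °C. The beta subunit gene fars-3, outside the rule, had a level of 69.3 at 26 °C and 87.3 at 20 °C, beside 71.3 and 90.5 for fars-1. The other 6 pairs lay between 3.15 for arginine and 6.59 for proline at 26 °C, and between 2.83 for serine and 7.45 for leucine at 20 °C. The pair for glutamate changed most between temperatures, with ears-1 8.32-fold above ears-2 at 26 °C and 15.7-fold at 20 °C. The 2 temperatures are described by 1 pooled value each, and the spread of these ratios between libraries is unknown.

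**Figure D2:**
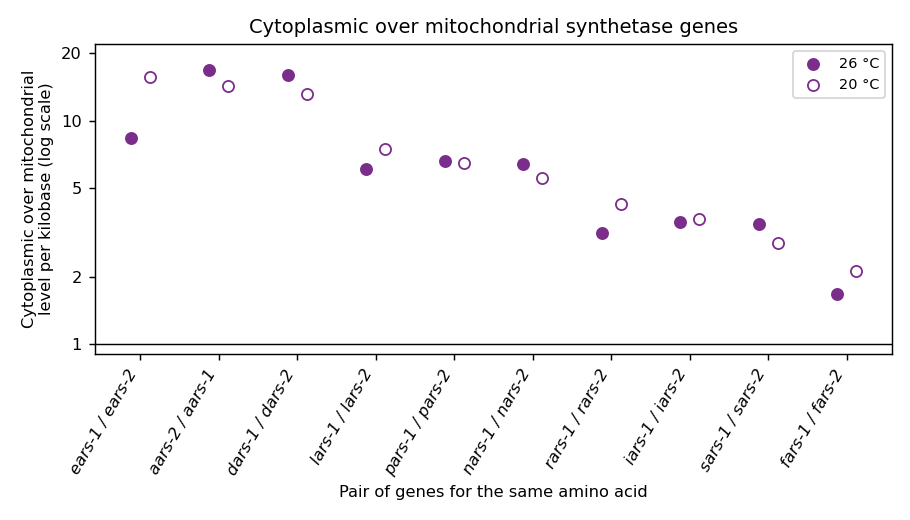
Ratio of the cytoplasmic to the mitochondrial gene in level per kilobase (log axis) for each of 10 amino acids. Filled points are 26 °C and open points 20 °C, and the line marks equal levels. All ratios are above 1, from 1.68 for phenylalanine at 26 °C to 16.8 for alanine at 26 °C.

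Synthetase genes tended to be lower at 26 °C. On the scale per 1000000, 25 of 31 genes were lower at 26 °C than at 20 °C, with a median log2 ratio of 26 °C over 20 °C of -0.23, or 0.851-fold. The summed value of the family was 4827 per 1000000 at 26 °C and 5739 per 1000000 at 20 °C. Over all 14780 genes whose pooled mean reached 10 at either temperature, 36.9% were lower at 26 °C and the median log2 ratio was 0.20. Relative to that median, 30 of 31 synthetase genes were lower at 26 °C, and the family's median was -0.44. Ratios were lower for genes with higher pooled means, so the family was also set beside the 5426 genes whose pooled means lie within its own range at both temperatures, a background chosen after the data were seen. These had a median log2 ratio of 0.03, and 46.3% of them were lower at 26 °C. The direction of this background turned with the scale, since on the scale of the fit of both temperatures its median was -0.11 and 3402 of the 5426 genes were lower at 26 °C, as were 30 of 31 synthetase genes. Relative to the median of all genes, 68.1% of the genes in the range were lower at 26 °C.

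The differences were small. On the scale per 1000000, 0 of 31 genes were at least 1.5-fold higher at 26 °C, where 31.3% of all genes were, and 0 of 31 were at least 1.5-fold lower, where 9.3% of all genes were. Among the genes in the family's range, 10.6% were at least 1.5-fold higher and 2.95% at least 1.5-fold lower. Relative to the median of all genes, 6 of 31 were at least 1.5-fold lower, against 14.8% of all genes and 9.01% of the genes in the family's range. On that scale 0 were at least 1.5-fold higher, against 23.6% of all genes and 299 of the 5426 genes in the family's range. The 6 genes were nars-2, cars-1, qars-1, hars-1, kars-1 and ears-1. Nothing in these counts was tested.

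**Figure D3:**
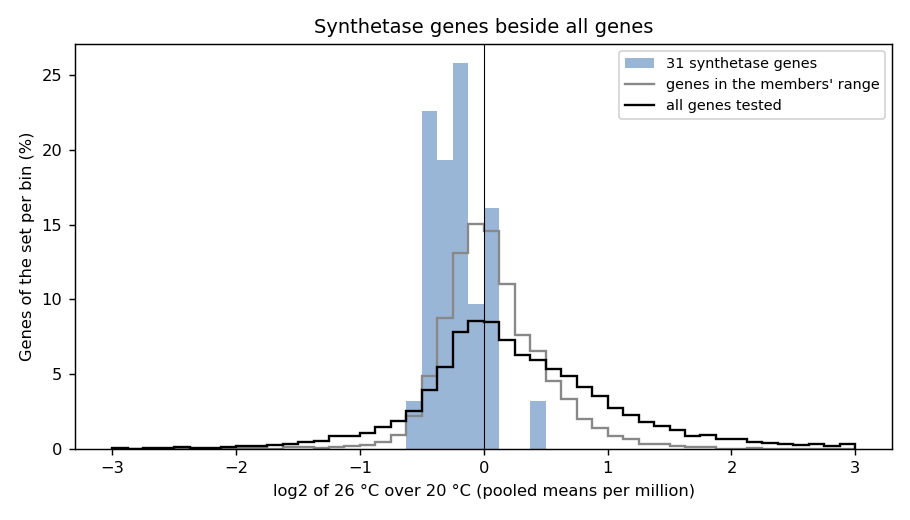
Distribution of the log2 ratio of pooled means at 26 °C over 20 °C in bins of equal width, as the percentage of genes of each set. The filled steps are the 31 synthetase genes, the grey line the 5426 genes in their range of pooled means and the black line all 14780 genes tested, of which 367 lie outside the plotted range of -3 to 3. The synthetase genes lie between -0.54 and 0.48.

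The 5 genes taken to serve both compartments were all lower at 26 °C. cars-1 (cysteine) had a mean normalized count of 4546 at 26 °C and 6761 at 20 °C, a log2 ratio of -0.47 on the scale per 1000000. hars-1 (histidine) had 3213 and 4688, a log2 ratio of -0.45. kars-1 had 10757 at 26 °C and 15662 at 20 °C (-0.44). These 3 lay between 0.720-fold and 0.735-fold, and gars-1 (glycine, -0.30) and tars-1 (-0.22) were closer to no difference. The median of the 5 genes was -0.44.

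Of the 13 cytoplasmic genes, 11 were lower at 26 °C, with a median log2 ratio of -0.28. qars-1, the glutaminyl-tRNA synthetase gene (WBGene00001336, chromosome IV, 15008503 to 15013183), had 5535 at 26 °C and 8113 at 20 °C, a log2 ratio of -0.45. ears-1 (WBGene00001337, chromosome I, 10336395 to 10341178) had 9193 and 13349 (-0.44). rars-1 (arginine), fars-1 and nars-1 had ratios of -0.38, -0.34 and -0.33. iars-1 (isoleucine), mars-1 (methionine), lars-1 (leucine) and wars-1 (tryptophan) lay between -0.28 and -0.21, and pars-1 (proline) and sars-1 (serine) at -0.12 and -0.09. Only dars-1 (0.09) and aars-2 (0.06) were above 0, with mean normalized counts of 7572 and 12351 at 26 °C and 7592 and 12709 at 20 °C. Both were below 0 on the deposited scale and on the scale of the fit of both temperatures, so their direction is not settled.

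The mitochondrial genes ranged from -0.54 to 0.48, with a median of -0.17 and 7 of 10 lower at 26 °C. Both ends were set by single genes, nars-2 and ears-2, with the family's lowest and highest ratios. The other mitochondrial genes lay between -0.38 and 0.06, beside -0.45 to 0.09 for the cytoplasmic genes. Mitochondrial genes also had lower mean normalized counts, 377 to 2968 at 20 °C against 3578 to 13349 for cytoplasmic genes. nars-2 (asparagine; WBGene00013447, chromosome III, 11488353 to 11500747) had a mean normalized count of 584 at 26 °C and 907 at 20 °C, a log2 ratio of -0.54 or 0.690-fold. ears-2 had 490 at 26 °C and 377 at 20 °C, a log2 ratio of 0.48 or 1.39-fold. ears-2 was the 1 member above the median of all genes, and 64.0% of all genes and 85.1% of the genes in the family's range had a lower ratio. sars-2 (serine, -0.38), iars-2 (isoleucine, -0.23), dars-2 (-0.19), aars-1 (-0.19) and pars-2 (-0.15) were lower at 26 °C. fars-2 (-0.01), rars-2 (arginine, 0.04) and lars-2 (0.06) were near 0, and rars-2 and lars-2 were below 0 on the deposited scale. Of the unassigned genes, yars-2 and yars-1 had ratios of -0.33 and -0.15, and vars-1 had 0.12, which was below 0 on the scale of both temperatures. glp-4, which encodes a valyl-tRNA synthetase and is no member by name, had 350 per 1000000 at 26 °C and 504 at 20 °C, a log2 ratio of -0.53. Per kilobase, the level of glp-4 was 98.0 at 26 °C and 141 at 20 °C, beside 17.4 and 16.0 for vars-1.

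**Figure D4:**
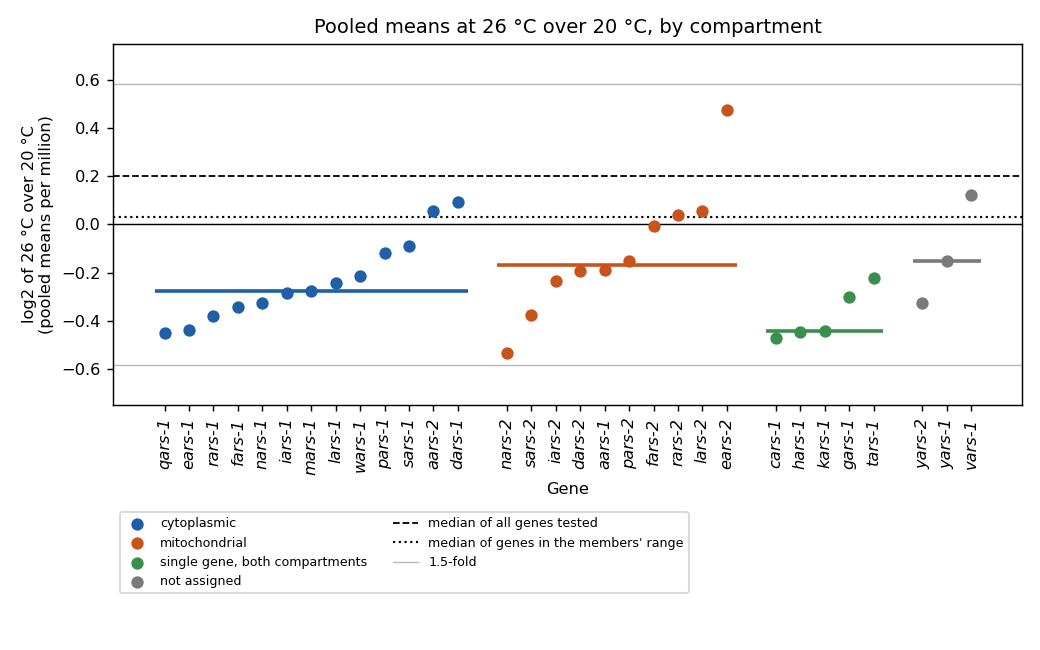
log2 ratio of pooled means per 1000000 at 26 °C over 20 °C for each synthetase gene, by compartment, with the median of each compartment as a coloured bar. The dashed line is the median of all genes tested (0.20), the dotted line that of the genes in the family's range (0.03), and the grey lines mark 1.5-fold. All 31 genes lie between the grey lines, and only ears-2 lies above the dashed line.

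Within pairs, neither compartment had the lower ratio throughout. The difference of log2 ratios within a pair does not depend on how the temperatures are scaled. The cytoplasmic gene had the lower ratio in 5 of 10 pairs and the mitochondrial gene in the other 5, with a median difference, cytoplasmic minus mitochondrial, of -0.01. It was -0.92 for glutamate, -0.42 for arginine, -0.34 for phenylalanine and -0.30 for leucine. It was positive for aspartate and serine (both 0.29), alanine (0.24) and asparagine (0.21). By structural class, the 7 cytoplasmic genes of class I (glutamate, isoleucine, leucine, methionine, glutamine, arginine and tryptophan) had a median of -0.28 and all lay below 0. The 6 cytoplasmic genes of class II had a median of -0.10, with 4 below 0. For the mitochondrial genes the order was the other way, with medians of 0.05 for the 4 genes of class I, which became -0.10 on the scale of both temperatures, and -0.19 for the 6 of class II. The 9 genes whose mammalian counterparts are held in the multi-synthetase complex had a median of -0.28, and the other 9 cytoplasmic or shared genes -0.30. Across the 31 genes, which share their libraries and are not independent replicates, Spearman's rho of the ratio with transcript length was -0.05. With the pooled mean it was -0.27, beside -0.30 over the 14721 tested genes with a value at both temperatures.

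Other genes of translation and tRNA metabolism were read on the same scale per 1000000, on which the median of all genes was 0.20. On this scale 36.9% of all genes, and 46.3% of the genes in the synthetase family's range, were lower at 26 °C. Of the 24 initiation factor genes named eif-, 22 were lower at 26 °C, with a median log2 ratio of -0.44. In that list 3 were at least 1.5-fold lower, among them eif-3.D at -0.66, and 0 were at least 1.5-fold higher. The shares were 9.3% and 31.3% of all genes, and 2.95% and 10.6% of the genes in the synthetase family's range. Of 6 cytoplasmic elongation factor genes 5 were lower, including eef-2 at -0.48, while eef-1A.2, 1 of the genes for elongation factor 1A, was 2.25-fold higher (907 per 1000000 at 26 °C and 404 at 20 °C). The 4 mitochondrial elongation factor genes that were matched had a median of -0.10, with 2 below 0 (tufm-1 at -0.31 and gfm-1 at -0.23) and 2 just above it (tsfm-1 and tufm-2, both at 0.03). Of 8 genes of tRNA processing and modification 7 were lower, and elpc-1, a subunit of the Elongator complex that modifies tRNA, was lowest at -0.92. All 4 RNA polymerase III genes named rpc- were lower, with rpc-2 at -0.74. In the response to uncharged tRNA, the kinase gene gcn-2 had a ratio of 0.01, its partner gcn-1 one of -0.67, and atf-4, which encodes a transcription factor of that response, one of 0.53.

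Summed levels of tissue markers differed between the temperatures as well. The 3 germline markers pgl-1, glh-1 and gld-1 summed to 1889 per 1000000 at 26 °C and 2496 at 20 °C, each of them lower at 26 °C. The 4 intestinal and yolk markers summed to 82006 at 26 °C and 65278 at 20 °C, nearly all of it from the yolk genes vit-2 and vit-6. The intestinal markers elt-2 and ges-1 had 13.0 and 46.2 per 1000000 at 26 °C, and 10.1 and 21.7 at 20 °C. The 2 muscle markers summed to 2225 and 2031. The 2 sperm markers summed to 8.11 and 19.2, the 2 neuronal markers to 13.7 and 10.1, and the 2 hypodermal markers to 1.57 and 0.510. The hypodermal markers dpy-7 and rol-6 had mean normalized counts of only 8.10 and 7.44 at 20 °C, below 10. Of the muscle markers, unc-54 (log2 ratio 0.09) lay below the median of all genes, 0.20, and myo-3 (0.48) above it. All 15 markers were detected, with pooled means above 0 at both temperatures. Their part in the ratios of the synthetase genes was not tested.

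Several genes overlap the annotated span of a neighbour. Spans were taken whole, introns included, so an overlap of exons was not shown, and the share over all genes was not computed. By the Ensembl annotation, 13 of the 31 are overlapped by a protein-coding gene on the other strand, among them nars-2, ears-2, cars-1 and dars-1, and 3 by one on the same strand (ears-1, iars-2 and pars-2). The libraries kept strand, but whether the counting used it is not given in the sources used here, so reads of such neighbours may be included.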

How the data were processed

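The authors processed the reads with a core facility pipeline built on nf-core/rnaseq, with WBcel235 as the build per the labels. The aligner, the counter and the annotation release are not given in the sources used here. Each of the 10 deposited tables holds the authors' DESeq2 comparison in 7 columns (fold changes, standard error, statistic, p-values and direction), none of which was used, and a mean normalized count, a signal that the authors averaged over the libraries of a fit. These means were identical among the tables of a fit (largest difference 0), which gave 3 fits: 26 °C, 20 °C and both temperatures. There were 0 columns of per-sample values. Depth per library and replicate spread are therefore unknown, and no interval can be given.

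From these means, values per 1000000 of the sum of a fit and log2 ratios were computed with Python 3.11.15, numpy 2.4.6 and pandas 2.3.3. Ratios were given over genes with a mean of at least 10 at either temperature, and 1.5-fold was the limit for a count. Positions and transcript lengths came from Ensembl release 115 (WBcel235), in which all 46926 gene identifiers were found. The genes named were all members by the rule, with full values for those at either end of the levels and ratios, and the listed genes of translation. Alternatives were other scales, no minimum, other folds and coding length. The scale of the fit of both temperatures was estimated by robust regression, tested on simulated data. Members and lists were chosen with earlier results of these data known. No sequences are shown.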

Additional observations from a re-analysis of the deposited data

How the results depend on the processing

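The median of all genes, 0.20 per 1000000, was 0.06 on the scale of both temperatures. The medians of the whole family, the cytoplasmic genes and the mitochondrial genes stayed below 0 on each scale listed here, but their size moved. That of the 4 mitochondrial genes of class I turned from 0.05 per 1000000 to -0.10 on the scale of both temperatures, and that of the genes in the family's range from 0.03 to -0.11. The median log2 ratio of all 31 genes, -0.23 per 1000000, was -0.33 on the deposited scale, -0.20 without the vitellogenin genes in the sum, -0.44 re-centred on all genes, -0.38 with the scale of the fit of both temperatures and -0.27 re-centred on genes in the family's range. In the same order it was -0.37, -0.25, -0.48, -0.42 and -0.31 for the cytoplasmic genes (-0.28 per 1000000), and -0.27, -0.14, -0.37, -0.32 and -0.20 for the mitochondrial genes (-0.17 per 1000000). The last of these scales was chosen after the data were seen. The number of genes at least 1.5-fold lower at 26 °C, 0 per 1000000, was 1 on the deposited scale, 6 re-centred on all genes and 5 with the scale of both temperatures, and 11 genes were lower and 1 was higher by more than 0.32 in log2 per 1000000. The count of genes at least 1.5-fold higher was 0 on every scale listed here. Single genes below 0 numbered 25 per 1000000, and between 24 and 30 on the other scales, because genes near 0 changed sign. Removing the minimum changed nothing for the family. With coding length in place of transcript length, the median level was 93.7 for cytoplasmic and 16.3 for mitochondrial genes at 26 °C, and 113 and 19.6 at 20 °C. The pooled mean of the fit of both temperatures differed from the value predicted from the single temperatures by -3.91% to 5.31% over the family. The lower end was kars-1, and the upper end was ears-2, which also had the family's highest ratio. No paired analysis was possible because no value per library was used. Depth and replicate spread are unknown, which limits every ratio here.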
